A study of Mus musculus with 58 samples.

Results

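Cirbp, Rbm3 and Srsf5, 3 genes for RNA-binding proteins whose transcripts rise when cells are mildly cooled, were followed through lung, liver and forestomach of mice given indeno(123,cd)pyrene (IP), a polycyclic aromatic hydrocarbon. They were selected by name among 20651 gene names on the array, with earlier results of these arrays in view, so their values are given as a description and without a test. Of 55681 different array features (probes), 5 measure them: 1 for Cirbp, 1 for Srsf5 and 3 for Rbm3. The mice were Muta™Mouse males, a transgenic strain that carries a bacterial reporter gene for mutation assays, about 13 weeks old. For 28 days they were gavaged with olive oil alone (vehicle) or with olive oil holding IP, at a daily dose of 12.5, 25 or 50 mg/kg-bw, and tissues were taken 72 h after the last dose. Lung was measured in 5 mice per group, and liver and forestomach in 4 vehicle mice and 5 mice per dose, giving 58 arrays. On each array the Cy5-labelled sample was read against a Cy3-labelled reference RNA pooled from 11 mouse cell lines, and values are log2(Cy5/Cy3) after loess normalization within the array. A value of 0 is the level in the reference, and a difference of 1 is a doubling.

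CIRBP and RBM3 are small glycine-rich proteins with a single RNA recognition motif. They are induced by mild cooling, follow the daily rhythm of body temperature, and bind the ends of other transcripts, those of clock genes among them. SRSF5 is an SR protein, a splicing factor whose activity is set by phosphorylation by the CLK and SRPK kinases, and its transcript is also known to be cold-induced. Heat shock chaperones, which the transcription factor HSF1 switches on when proteins unfold, respond to temperature in the opposite direction.

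The sequence before the Cirbp start site is shown because a stretch of this kind has been described there as a mild-cold response element, with the octamer TCCCCGCC. The windows come from RefSeq (GRCm38.p6) and hold the 250 bases before a start site, on the plus strand. Cirbp has 2 such windows and Srsf5 has 1. The sequences run 5′ to 3′, and capitals mark the octamer.
Cirbp, chr10:80167589-80167838: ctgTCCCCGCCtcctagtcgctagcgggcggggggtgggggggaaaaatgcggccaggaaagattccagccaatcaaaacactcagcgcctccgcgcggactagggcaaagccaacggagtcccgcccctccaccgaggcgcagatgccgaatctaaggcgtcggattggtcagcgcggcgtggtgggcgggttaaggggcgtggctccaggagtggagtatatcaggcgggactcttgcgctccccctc
Srsf5, chr12:80945249-80945498: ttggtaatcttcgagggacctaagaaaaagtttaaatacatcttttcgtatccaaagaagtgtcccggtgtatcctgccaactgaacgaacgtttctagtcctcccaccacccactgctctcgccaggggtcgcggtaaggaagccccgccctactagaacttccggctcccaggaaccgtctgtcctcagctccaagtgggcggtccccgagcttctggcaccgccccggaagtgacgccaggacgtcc

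The octamer was found once in the first Cirbp window, at chr10:80167592-80167599, 247 bases before the start site. It was not found, on either strand, in the second Cirbp window or in that of Srsf5. Of 32851 windows of the same length, 4.64% held it on either strand. The first Cirbp window was 65.6% G or C, the second 72.4% and that of Srsf5 56.8%, against a median of 52.4%. The shares over all windows are not matched for this. The last 6 letters of the octamer, CCCGCC, were held by 32.5% of the windows. On either strand they occurred 5 times in the first Cirbp window, 1 of them inside the octamer. They occurred 4 times in the second Cirbp window and once in that of Srsf5. The letters GAANNTTC, 2 facing units of a heat shock element, were in none of the 3 windows and in 6.69% of all. These matches describe letters and not bound sites.

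All 5 probes were well above background in Cy5 on 58 of 58 arrays. Rbm3 probes 1, 2 and 3 are designed to the transcripts NM_001166409, NM_001166410 and NM_016809. Probe 1 is the brightest, whereas probe 3 is dim, with a median Cy3 signal of 6.56 on the log2 scale. The share of all probes with Cy5 well above background ran from 37.6 to 90.7% over the arrays. In liver it was 37.6 to 41.7% in vehicle mice and 40.7 to 78.9% at 50 mg/kg-bw/day. In forestomach it was 43 to 52.4% in vehicle mice and 47.7 to 85.9% at 50 mg/kg-bw/day. The part of this share in the differences from vehicle was not tested. Surfactant, hepatocyte and keratin genes marked their labelled tissues on every array. Forestomach arrays also carried glandular stomach genes (Gkn2 on 19 of 19 arrays, Atp4a on 10), and lung arrays heart muscle genes (Myh6 on 20 of 20). Doses were laid out by column of the slide, with 2 liver arrays as exceptions, so the effect of a dose and that of its column cannot be told apart. Liver arrays lay on 3 slides and were read with another version of the scanner software than the 5 slides of lung and forestomach, so slide and tissue cannot be told apart there.

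In vehicle mice, Cirbp stood highest in lung, at −0.55 ± 0.70 (SD, n = 5), then in forestomach at −1.12 ± 0.57 (n = 4) and in liver at −1.41 ± 0.56 (n = 4). Srsf5 had the same order, at −0.42 ± 0.50 in lung, −0.78 ± 0.22 in forestomach and −1.38 ± 0.46 in liver. For both genes, lung and forestomach differed by less than the SD between lung mice, and for Cirbp forestomach and liver did so as well.

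Of the members, Rbm3 had the largest differences between liver and the other tissues, by probes 1 and 2. By probe 1 it was at −3.48 ± 0.03 (SD, n = 4) in vehicle liver against −1.75 ± 0.43 (n = 5) in lung and −1.52 ± 0.23 (n = 4) in forestomach, so that lung and forestomach were 3.33 and 3.90 times the liver level. By probe 2 these ratios were 2.08 and 2.46, and by the dim probe 3 they were 1.37 and 1.33. Lung and forestomach differed by 0.23 on the log2 scale by probe 1, less than the SD between lung mice.

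**Figure D1:**
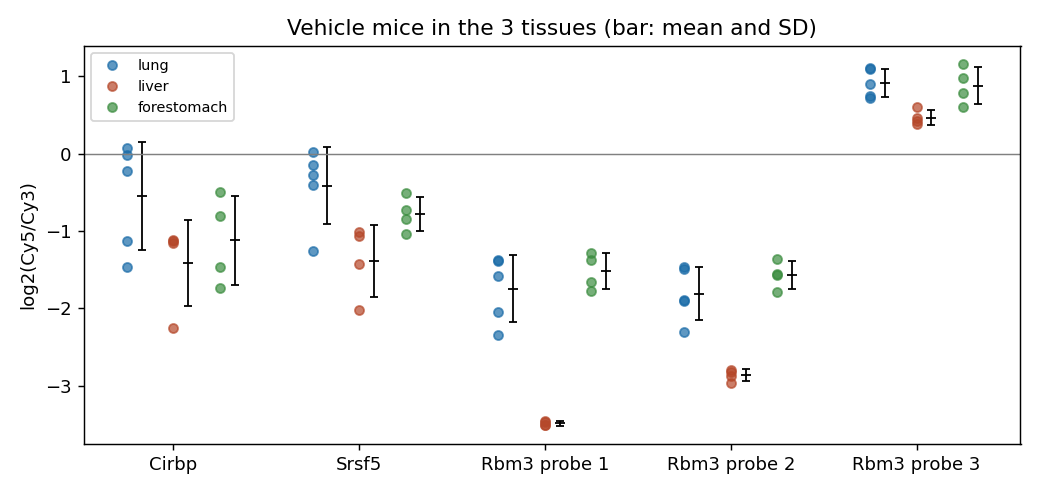
Log2(Cy5/Cy3) of the 5 probes in each vehicle mouse, by tissue, with the mean and SD of 4 or 5 mice as bars. The 4 liver points of Rbm3 probes 1 and 2 lie below every lung and forestomach point, whereas those of Cirbp and Srsf5 spread into the other tissues.

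In the joint fit of all arrays with limma, 4 of the 5 probes met the study's thresholds (an adjusted p no higher than 0.05 with a change of 1.5-fold or more) as higher in vehicle lung than in liver, where 15.7% of all probes were called higher and 11.1% lower. Rbm3 probes 1 and 2 and Srsf5 did so as higher in forestomach than in liver, where 12.8% of all probes were called higher and 9.89% lower. Between lung and forestomach, where 10.6% were called higher in lung and 8.9% lower, 0 of the 5 were called. These counts are descriptions, as the members were chosen with such values known.

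Srsf5 had its highest group mean at the top dose in all 3 tissues. In lung, the 5 vehicle mice were at −1.26, −0.41, −0.28, −0.15 and 0.02, and the 5 mice at 50 mg/kg-bw/day at 0.12, 0.24, 0.26, 0.27 and 0.37. The groups did not overlap, although a gap of 0.10 parts them, and the dosed mice lay closer together (SD 0.09 against 0.50). The difference was 0.67 (SE 0.18), a fold of 1.59, after 0.20 at the lowest and 0.35 at the middle dose. Without vehicle mouse 2, at −1.26, the differences were −0.01, 0.14 and 0.46 from the lowest to the highest dose.

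In forestomach, Srsf5 was at −1.04, −0.84, −0.73 and −0.51 in vehicle mice and at −0.50, −0.16, −0.07, 0.10 and 0.35 at 50 mg/kg-bw/day. The groups touched without overlapping, at a gap of 0.02, and the difference was 0.73 (SE 0.18), a fold of 1.66. The step lay at the upper doses, with −0.04 at the lowest and 0.34 at the middle dose. In liver, vehicle mice were at −2.02, −1.43, −1.07 and −1.01, and mice at 50 mg/kg-bw/day at −1.06, −0.90, −0.79, −0.70 and −0.49. Here 4 of 5 dosed mice exceeded every vehicle mouse, for a difference of 0.59 (SE 0.20), a fold of 1.51, whereas the lower doses gave 0.02 and 0.08. Without vehicle mouse 2 the liver differences were −0.20, −0.13 and 0.38. Probes with all mice at 50 mg/kg-bw/day above every vehicle mouse made up 1.26% of all lung, 1.13% of all liver and 0.891% of all forestomach values, and Srsf5 was the one member probe among them in lung and forestomach.

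Cirbp also had higher means than vehicle at each dose in all 3 tissues, but its groups overlapped throughout, and in liver the sign at every dose rested on vehicle mouse 2. In lung, vehicle mice were at −1.46, −1.13, −0.22, −0.01 and 0.07, and mice at 50 mg/kg-bw/day at −0.08, −0.03, −0.00, 0.13 and 0.43. The vehicle mice fell into a low pair, mice 1 and 2, and 3 mice within the range of the dosed groups. The differences were 0.31, 0.52 and 0.64 (SE 0.23 each) from the lowest to the highest dose, the last a fold of 1.56. Without vehicle mouse 2 they were 0.09, 0.29 and 0.41, and without vehicle mouse 1 they were 0.17, 0.37 and 0.49.

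In forestomach, the same pair of vehicle mice was low for Cirbp, at −1.73 (mouse 1) and −1.46 (mouse 2), beside −0.80 and −0.49 in the other vehicle mice. Lung and forestomach arrays of mouse 1 shared a slide, as did those of mouse 2. Mouse and slide therefore cannot be told apart where these tissues are alike. Mice at 50 mg/kg-bw/day were at −0.74, −0.69, −0.61, −0.58 and −0.16, so that 1 of 5 exceeded every vehicle mouse. The differences were 0.41, 0.45 and 0.56 (SE 0.22 each), and without vehicle mouse 1 they were 0.21, 0.25 and 0.36. In liver, vehicle mice were at −2.25, −1.15, −1.13 and −1.12 and mice at 50 mg/kg-bw/day at −1.39, −1.39, −1.21, −1.15 and −0.67. The differences were 0.07, 0.15 and 0.25 (SE 0.21 for the last), and without mouse 2 they were −0.21, −0.13 and −0.03.

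Rbm3 showed no such step by any probe. In lung, probe 1 was at −2.35, −2.05, −1.58, −1.39 and −1.37 in vehicle mice and at −2.22, −2.02, −1.55, −1.50 and −1.21 at 50 mg/kg-bw/day. Both groups covered nearly the same range, and the difference was 0.05 (SE 0.20). In liver it was −0.16 (SE 0.15) and in forestomach −0.06 (SE 0.17).

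By probe 2, the differences at 50 mg/kg-bw/day were 0.02, −0.13 and −0.08 in lung, liver and forestomach. By the dim probe 3 they were −0.07, −0.27 and −0.42, and in forestomach 4 of 5 mice at 50 mg/kg-bw/day lay below every vehicle mouse by this probe. The sign for Rbm3 depends on the scaling: with median-centred arrays and no loess, probe 1 gave 0.31, 0.41 and 0.35 in lung, liver and forestomach.

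**Figure D2:**
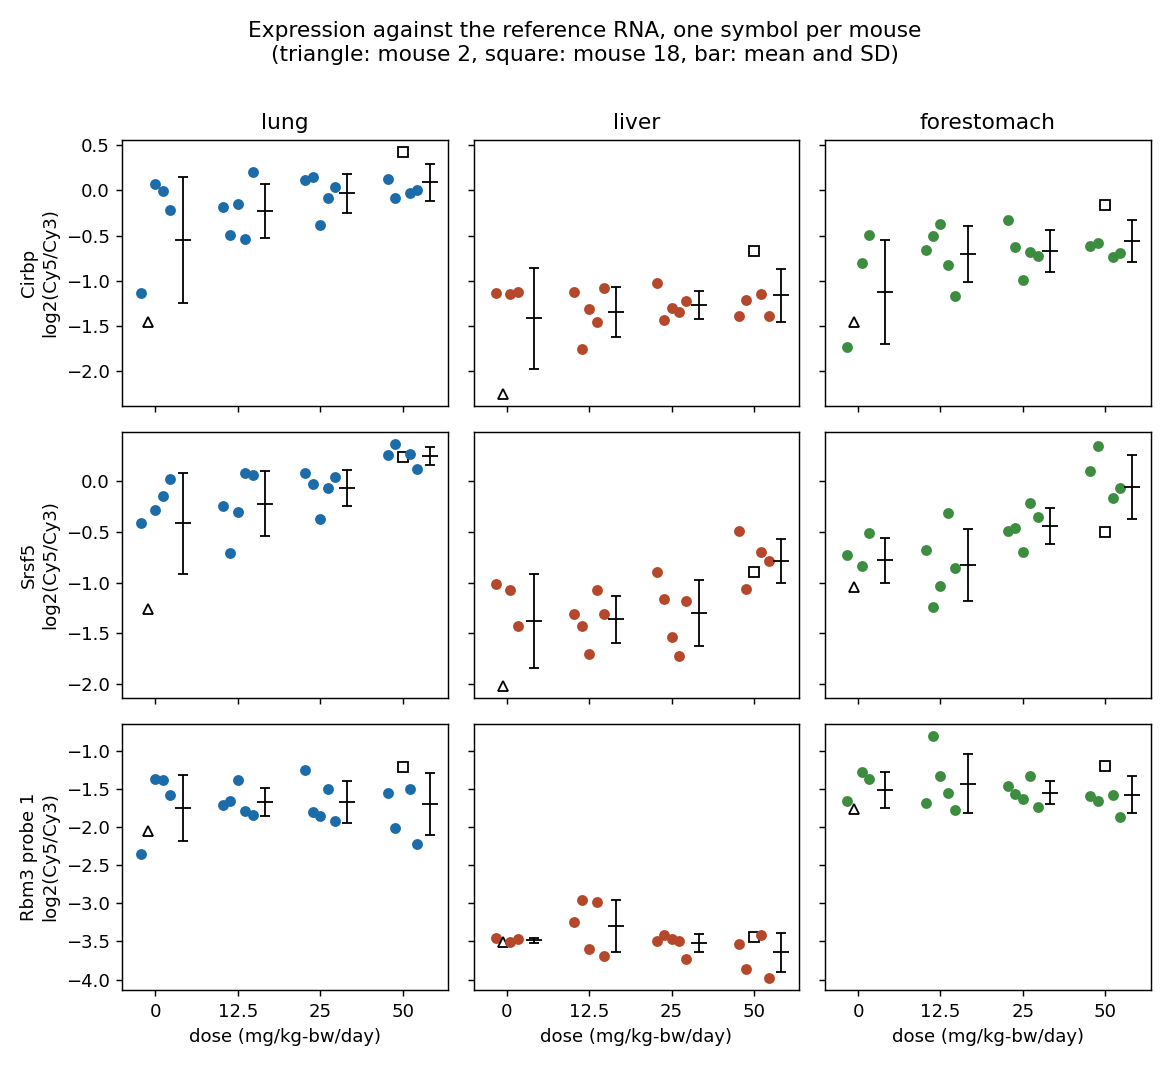
Log2(Cy5/Cy3) of Cirbp, Srsf5 and Rbm3 probe 1 against dose in mg/kg-bw/day, 1 symbol per mouse, with the mean and SD of each group as a bar. Srsf5 at 50 mg/kg-bw/day lies above vehicle in every panel, apart from 1 liver mouse at −1.06, while the Cirbp vehicle groups are drawn out by mouse 2 (triangle) and, in lung and forestomach, mouse 1. Mouse 18 (square) is the highest of its group for Cirbp in each tissue.

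None of the 5 probes met both thresholds in any of the 9 comparisons of a dose with vehicle. In lung, limma called 0% of all probes at the lowest dose, 0.0126% at the middle and 0.079% at the highest. In the other tissues it called 0% at every dose. At the highest dose the unadjusted p was under 0.05 for 4904 lung probes, 3808 liver probes and 2165 forestomach probes.

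**Figure D3:**
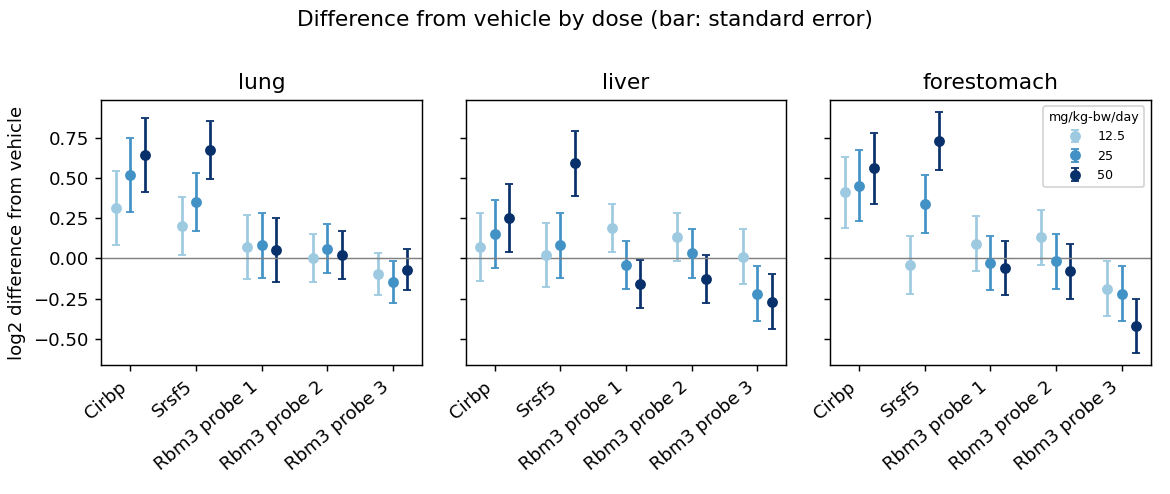
Log2 difference from vehicle of each member probe at the 3 doses, by tissue, with standard errors from the limma fit of the tissue. Cirbp and Srsf5 reach between 0.56 and 0.73 at the top dose in lung and forestomach, and the Rbm3 probes stay between −0.42 and 0.19 in all comparisons.

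The step at 50 mg/kg-bw/day was also compared between tissues. For Srsf5, lung minus liver was 0.08 (SE 0.27), lung minus forestomach −0.06 (SE 0.27) and forestomach minus liver 0.14 (SE 0.28). For Cirbp these were 0.39, 0.08 and 0.31 (SE 0.33, 0.33 and 0.34), so differences of a similar size to the effects themselves cannot be seen with these numbers of mice. In the 3 comparisons 0.0162, 0.0144 and 0.00359% of all probes were called, and 0 member probes.

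In lung, where a slide carried every group once, the arrays can be compared slide by slide. For Srsf5 the lung groups did not overlap, so any pairing puts the mouse at 50 mg/kg-bw/day above its vehicle mouse. Only the sizes of the differences are therefore given, at 0.25, 0.27, 0.52, 0.68 and 1.64 over the 5 slides. For Cirbp the differences were 0.00, 0.19, 0.36, 1.26 and 1.38, and the last 2 belong to the slides of vehicle mice 1 and 2. Rbm3 probe 1 ran from −0.82 to 0.80 over the slides.

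Vehicle mouse 2 was the lowest vehicle mouse for Srsf5 in each tissue, at −1.26, −2.02 and −1.04 in lung, liver and forestomach. For Cirbp it was the lowest in lung and liver. At the other end, mouse 18 had the highest Cirbp value of its dose group in all 3 tissues (0.43, −0.67 and −0.16), yet the lowest Srsf5 value in forestomach (−0.50). Its lung, liver and forestomach arrays had 85.1, 44 and 85.9% of probes well above background in Cy5. In lung and forestomach this was the highest share of its group. These arrays shared a slide, whose lung arrays were all at 83.8 to 90.7%. The other forestomach arrays of that slide were at 81.2 and 48%. For this share, mouse 18 and its slide cannot be told apart in lung and forestomach. In lung, 4 of the 5 vehicle arrays also carried more brown fat RNA than the dosed arrays: the mean log2 ratio over 5 brown fat genes was 1.76 to 2.16 in vehicle mice 2 to 5 and 0.37 in mouse 1, against 0.17 to 0.92 in the dosed mice. Of its defining genes, Ucp1 was well above background on 10 of 20 lung arrays and Cidea on 20 of 20. The mean over 5 heart muscle genes was 1.77 to 4.36 in vehicle lungs and −0.08 to 2.81 at 50 mg/kg-bw/day. In forestomach, the mean over 6 glandular stomach genes was 0.80 to 6.63 in vehicle mice (median 6.52), 1.04 to 6.53 (median 2.24) at the lowest, 1.53 to 6.70 (median 2.70) at the middle and 1.44 to 6.83 (median 5.15) at the highest dose. There, the mean over 5 hepatocyte genes had medians of 2.90 in vehicle mice and 1.31, 1.26 and 1.98 from the lowest to the highest dose. In liver the hepatocyte mean was 7.44 to 8.44 in vehicle mice (median 8.31) and 7.32 to 8.12 at 50 mg/kg-bw/day (median 7.55). The part of these marker levels in the differences of the 3 tissues was not tested. In bulk tissue, fewer cells of a type and less RNA per cell cannot be told apart.

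Around the members, 61 genes of 7 lists had a probe: SR splicing factors, their kinases, other proteins with RNA recognition motifs, cold shock domain proteins, heat shock genes, temperature-sensing channels, and partners and targets of the members. At 50 mg/kg-bw/day, 1 of the 61, Hspa1a in lung, passed both thresholds in limma, and 0 did so in liver and forestomach. With slide as a block in the lung fit it was 6, Hspa1a and Hsph1 among them. An unadjusted p under 0.05 was reached by 20 genes in lung, 11 in liver and 8 in forestomach. These are 32.8, 18 and 13.1% of the 61, where all probes had 8.81, 6.84 and 3.89%. The lists were chosen with earlier results of these data known, so the higher shares are a description. Each gene is also given by its brightest probe, whereas all probes include dim ones. Heat shock genes made up 7, 4 and 5 of the genes in lung, liver and forestomach. In contrasts of the effect between tissues 0 of the 61 passed, with an unadjusted p under 0.05 for 6 genes in lung minus liver, 1 in lung minus forestomach and 5 in forestomach minus liver. These are 9.84, 1.64 and 8.2% of the 61, near the 7.07, 2.92 and 6.15% of all probes.

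Of the 9 other SR proteins measured, 0 were called at 50 mg/kg-bw/day in any tissue. Their differences were above 0 for 5 genes in lung, 4 in liver and 3 in forestomach. The list had medians of 0.01, −0.01 and −0.06 beside medians of all probes of 0.00, −0.01 and 0.00. With arrays centred on their medians, 8 of the 9 were above 0 in each tissue. Srsf4 had the largest difference in each tissue, at 0.26 (SE 0.08, limma adjusted p = 0.221), 0.45 and 0.20 in lung, liver and forestomach. It was above the vehicle mean in 5 of 5 mice in every tissue. Srsf10, an SR protein whose activity is known to turn on dephosphorylation during heat shock, was at −0.22, −0.01 and −0.18.

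The kinases that phosphorylate SR proteins were called in 0 of 7 cases in each tissue. Clk1 and Clk4, whose activity is temperature-dependent, differed by −0.05 and 0.06 in lung, and Clk4 by 0.22 in liver (SE 0.09, limma adjusted p = 0.72). Srpk3 was the largest in lung, at 0.45 (SE 0.16, adjusted p = 0.358 with limma). Srpk1 was so in liver at −0.38 and in forestomach at 0.25.

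Among 13 relatives with RNA recognition motifs, 0 were called in any tissue, and the medians were 0.11 in lung, −0.08 in liver and −0.06 in forestomach. The largest differences were −0.27 for Rbm8a, a core protein of the exon junction complex, in lung, −0.37 for Hnrnpa1, a splicing repressor, in liver, and −0.26 for Tra2a in forestomach. The 8 cold shock domain genes, which share a name but not a fold with the members, had 0 calls and medians of 0.04, −0.14 and 0.02. Their largest differences were −0.36 for Lin28a in liver and 0.34 for Ybx3 in forestomach.

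Trpv4, a warmth- and osmosensitive channel, differed by −0.62 in lung (SE 0.25, limma adjusted p = 0.427), −0.03 in liver and 0.05 in forestomach. Of the other 5 channels, Trpa1 in liver had −0.46 but was above background there on 0 of 19 arrays, and Trpv2 had −0.25 in forestomach. Among partners and targets, Clock, whose transcript CIRBP binds, differed by −0.27, −0.41 and 0.01 in lung, liver and forestomach. Rtn3, a target of RBM3 in neurons, differed by −0.22, −0.07 and −0.05, and Ntrk2, the receptor TrkB upstream of Rbm3, by −0.31, −0.70 and 0.34. All of these missed the threshold.

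The heat shock genes had lower means at 50 mg/kg-bw/day in 12 of 12 cases in lung, 9 of 12 in liver and 11 of 12 in forestomach. Their medians were −0.55, −0.24 and −0.36 against all-probe medians of 0.00, −0.01 and 0.00. With arrays centred on their medians, however, 11, 4 and 6 of the 12 were lower. Hspa1a, the inducible HSP70, fell by 2.22 on the log2 scale in lung (SE 0.42, limma adjusted p = 0.026). The 5 vehicle lungs were at 0.82, 1.39, 1.75, 3.21 and 3.58, the last 2 being mice 1 and 2, and the lungs at 50 mg/kg-bw/day were at −0.30, −0.20, −0.06, 0.08 and 0.15. The groups did not overlap, and the share of all probes with every dosed mouse below every vehicle mouse is not given here. The call was lost without vehicle mouse 1, vehicle mouse 2, or any of mice 17 to 20, and under 5 other settings.

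In liver, Hspa1a was at 0.38, 0.61, 0.90 and 3.81 in vehicle mice, the last being mouse 2, and between −0.47 and 0.14 at 50 mg/kg-bw/day, a difference of −1.64 (SE 0.47, limma adjusted p = 0.632) that was −0.85 without mouse 2. Hsph1, an HSP110 that serves HSP70 as nucleotide exchange factor, differed by −1.47, −0.23 and −1.18 in lung, liver and forestomach. Mouse 2 had the highest Hsph1 value of the vehicle mice in each tissue (2.81, 1.41 and 2.01), and mouse 18 the lowest of its dose group (−1.22, −0.86 and −0.71). For Cirbp, mouse 2 was the lowest vehicle mouse in lung and liver but not in forestomach. Mouse 18 was the highest of its dose group for Cirbp in each tissue. Dnaja1, an HSP40 co-chaperone, had the largest difference in forestomach, −1.25 (SE 0.24, limma adjusted p = 0.899), with 0 of 5 mice above the vehicle mean.

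**Figure D4:**
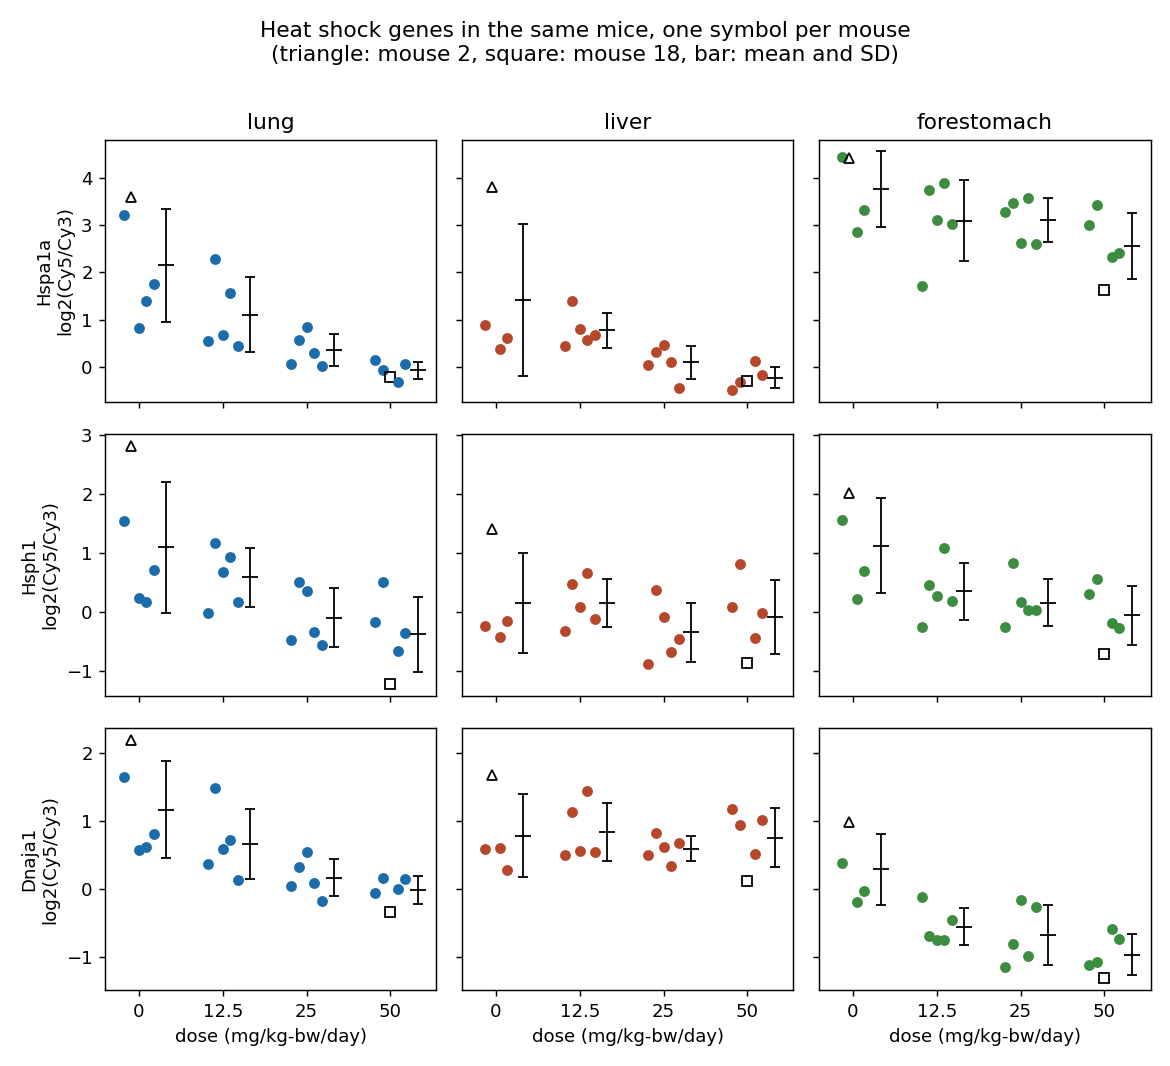
Log2(Cy5/Cy3) of Hspa1a, Hsph1 and Dnaja1 against dose in mg/kg-bw/day, 1 symbol per mouse, with the mean and SD of each group as a bar. Mouse 2 (triangle) is the highest vehicle mouse in every panel but that of Hspa1a in forestomach, where mice 1 and 2 are at 4.43 and 4.42. Mouse 18 (square) is the lowest of its group for Hsph1 in all 3 tissues.

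To compare patterns without the dose and tissue means, each value was taken relative to its group mean, and the members were correlated over 58 arrays with 9518 genes that were well above background on all arrays. The arrays come from 20 mice and share slides, and the coefficients are descriptions of the extremes of a ranking. For Cirbp, the lowest Pearson r of all 9518 genes were −0.82 for Dnaja1, −0.82 for Chordc1, an HSP90 co-chaperone, and −0.75 for Hsph1. For Dnaja1 the r was −0.90 in lung, −0.87 in liver and −0.66 in forestomach. Hspa1a came close behind at −0.69, with −0.89 in lung, −0.79 in liver and −0.35 in forestomach. The spread of Cirbp was largest in vehicle mice, with SDs of 0.70, 0.56 and 0.57 in lung, liver and forestomach. In the dosed groups the SDs were 0.16 to 0.31, so the vehicle mice weigh most in these coefficients. Among the genes most like Cirbp were Zc3h6 (0.67), Hnrnpd (0.64), which encodes an RNA-binding protein, Acox3 (0.63) and Wdr13 (0.63).

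Srsf5 ran most closely with Trub2, a pseudouridine synthase (0.75), and, among others, with Pabpn1, the nuclear poly(A)-binding protein (0.67), Dctn2 (0.67) and Sema4a (0.66). Least like it were AW209491 (−0.60), St7l (−0.59) and C9orf72 (−0.59). With the heat shock genes, Srsf5 had an r of −0.40 for Hspa1a and −0.34 for Hsph1, negative in lung and liver but positive in forestomach (0.26 and 0.25).

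Rbm3 had Hnrnpa1 (0.66), Cntln (0.61), Aif1 (0.61), Nat10 (0.60) and Sin3b (0.60) as the most similar genes, and H2bc14 (−0.60), Tax1bp1 (−0.56) and Aven (−0.53) as the least similar. Its r with Hspa1a was −0.20 over all arrays and −0.56, 0.10 and −0.01 in lung, liver and forestomach. Among the members themselves, Cirbp and Rbm3 had an r of 0.47, Cirbp and Srsf5 0.40, and Rbm3 and Srsf5 0.07. Cirbp ran with Rbm3 in lung (0.64) and forestomach (0.66) but not in liver (−0.09), and with Srsf5 in lung (0.69) and liver (0.47) but not in forestomach (−0.06).

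**Figure D5:**
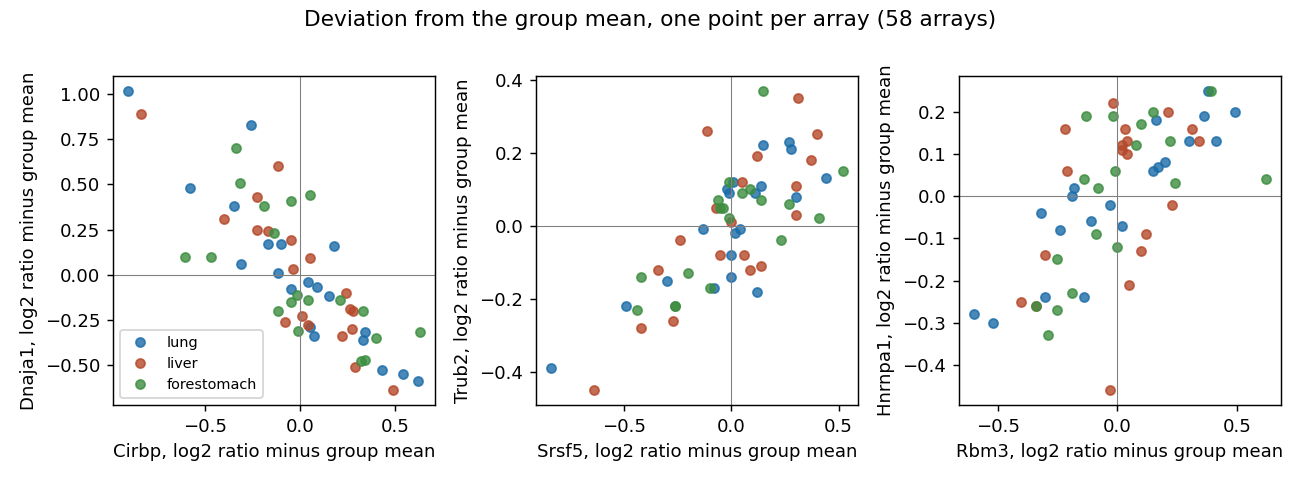
Deviations from the group mean in log2(Cy5/Cy3), 1 point per array and coloured by tissue: Cirbp against Dnaja1 (r = −0.82), Srsf5 against Trub2 (r = 0.75) and Rbm3 probe 1 against Hnrnpa1 (r = 0.66), over 58 arrays. The first panel falls from upper left to lower right in all 3 tissues.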

How the data were processed

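The authors scanned dual-colour Agilent arrays and extracted spot intensity values with Feature Extraction (10.7.3.1 for lung and forestomach, 11.0.1.1 for liver, per the file headers). The deposited log10 ratios come from the same software, and the deposited log2 ratios are the authors' LOWESS-normalized values. Liver log2 ratios did not correlate with the scanner values under their given probe names (r of −0.007 to 0.007) and were not used for liver. Here, log2(Cy5/Cy3) of median signals was loess-normalized within arrays without background subtraction, control and outlier spots having weight 0, and outlier spots were left out. Gene names came from RefSeq identifiers in the scanner files (27224 probes with 1 name), and the brightest probe stood for a gene outside the members.

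Each tissue was fitted with limma 3.58.1 (R 4.3.3, statmod 1.5.0, data.table version 1.17.8) across all probes as 4 groups, and tissues were compared in 1 fit of 12 groups, two-sided, with Benjamini-Hochberg adjustment over all probes. MAANOVA, which the study used, was replaced by limma at the study's thresholds, an adjusted p of 0.05 and a fold of 1.5. The members and lists were chosen with earlier results of these data known. Named genes are the list genes called at any dose, those with the largest difference of each list and tissue at 50 mg/kg-bw/day, 8 genes known with the members (Hspa1a, Hsph1, Clock, Trpv4, Rtn3, Clk1, Clk4 and Srsf10), and for each member the 5 most and 3 least similar genes. Some of these are not reported here. Labels number 5 vehicle mice in lung, where the methods give 4, and all were used. Labels name mice by number, and the pairing of tissues was taken from these numbers. The median residual r of the same mouse was 0.15 for lung and forestomach, 0.04 for lung and liver and 0.02 for forestomach and liver. For other mice of a dose it was −0.04, −0.02 and −0.01. Lung and forestomach arrays of a mouse lay on the same slide, except those of mouse 3. Mouse and slide cannot be told apart in that r, so it does not test the pairing. Precision is limited by signal over background and by how many mice each group had. Alternatives were other background corrections, scalings, blocks, filters and left-out mice.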

Additional observations from a re-analysis of the deposited data

Results flagged for a closer look

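In 84 groups of 4 or 5 mice (60 of the member probes and 24 of Hspa1a and Hsph1), the highest or lowest mouse stood apart from the rest in 5, by the ratio of its gap to the range of the group, and chance flags about 1 group in 20. In vehicle liver these were all mouse 2: Cirbp at −2.25, with the next mouse at −1.15, Hspa1a at 3.81, with the next at 0.90, and Hsph1 at 1.41, with the next at −0.15. Mouse 18 stood apart for Cirbp in forestomach at 50 mg/kg-bw/day, at −0.16 with the next at −0.58. Its array had 85.9% of probes well above background in Cy5, against 47.7 to 55.6% on the others of its group. The other forestomach arrays on the same slide were at 81.2% (mouse 8) and 48% (mouse 13). Mouse 15 stood apart for Rbm3 probe 1 in liver at 25 mg/kg-bw/day, at −3.73 with the next at −3.50. That array had 73.3% of probes well above background, against 38.2 to 66.6% on the others of its group. The part of this array difference in the values was not tested.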

How the results depend on the processing

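Cirbp and Srsf5 kept a positive difference at 50 mg/kg-bw/day under every setting tried in each tissue, except Cirbp in liver without vehicle mouse 2. Over left-out mice, Cirbp ran from 0.41 to 0.79 in lung, −0.03 to 0.35 in liver and 0.36 to 0.77 in forestomach, and Srsf5 from 0.46 to 0.78, 0.38 to 0.72 and 0.63 to 0.84. Centring arrays on their medians in place of loess moved the values at 50 mg/kg-bw/day in liver to 0.83 for Cirbp, 1.17 for Srsf5 and 0.41 for Rbm3 probe 1, and in forestomach to 0.95, 1.12 and 0.35. The median difference of all probes was at most 0.06 with that centring, and the cause was not tested. The number of list genes called in lung at 50 mg/kg-bw/day, 1, was 0 with median-centring, the scanner software log ratio, Cy5 alone, 2 groups fitted alone, and eBayes with trend and robust. It was 6 with slide as a block, which gave 2 at 25 mg/kg-bw/day, and 0 to 1 over left-out mice. In vehicle lung against liver, 29 list genes were called, and 45 with median-centring.

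The call of Hspa1a in lung (adjusted p 0.0522 to 0.08 with limma in the 6 fits without 1 mouse that lost it) had differences of −2.55 to −1.86 over left-out mice. It was −1.96 with median-centring, −2.55 with the scanner log ratio, −2.18 with Cy5 alone and −2.22 in the other 2 settings that lost it, with adjusted p of 0.686, 0.122, 0.0737, 0.113 and 0.0703. The adjusted p of Hsph1 in lung fell to 0.0143 with slide as a block.

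With median-centring, differences at 50 mg/kg-bw/day that were not called turned sign, in lung to 0.00 for Srsf10, 0.21 for Clk1, 0.03 for Rbm8a and 0.03 for Rtn3. In liver they turned to 0.63 for Srsf10, 0.30 for Srpk1, 0.21 for Hnrnpa1, 0.16 for Lin28a, 0.33 for Hsph1, 0.05 for Trpa1, 0.60 for Trpv4, 0.29 for Clock and 0.51 for Rtn3. In forestomach they turned to 0.20 for Srsf10, 0.15 for Tra2a, 0.14 for Trpv2 and 0.34 for Rtn3. The scanner log ratio turned Clk1 in lung to 0.02, Srsf10 and Trpv4 in liver to 0.14 and 0.39, and Clk4 and Rtn3 in forestomach to −0.01 and 0.04. Cy5 alone turned Ntrk2 in lung to 0.05 and Clk4 and Clock in forestomach to −0.10 and −0.11. The authors' values gave −0.01 for Clk1 in forestomach, slide as a block −0.00 for Clock there, and the mean over probes 0.05 for Trpv4 in liver. Over left-out mice the sign also turned for Clk1 (−0.09 to 0.04 in lung, −0.04 to 0.05 in liver and −0.08 to 0.19 in forestomach), Srsf10 (−0.06 to 0.07), Hsph1 (−0.46 to 0.19) and Trpv4 (−0.07 to 0.03) in liver, and Clk4 (−0.09 to 0.21), Trpv4 (−0.03 to 0.17) and Clock (−0.15 to 0.21) in forestomach. These genes have no settled direction here.

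By the labels, mouse numbers pair the tissues but not the doses. With mouse as a random replicate block in the joint fit, 30, 16 and 30 list genes were called for vehicle lung against liver, lung against forestomach and forestomach against liver, where 29, 16 and 30 were called without it, and 0 for each difference of effects, so the block changed no count by over 1.5 times.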
